A study of Mus musculus with 2 samples.

Results

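Part of the mouse array used here names its probes by a stretch of the genome instead of by a transcript, and these regions were described. A region was kept where its name was a chromosome, start and end (build mm9) and at least 1 of its probes was well above background on at least 1 array. This held for 3771 of 4609 measured regions, among 37891 names of every kind on the array. The 3771 regions carried 9126 detected probes of the 16189 that measured a position, and each probe was printed as 1 spot. No gene annotation of mm9 was used here, so whether a region lies between genes was not tested and no region was given a gene name. For the same reason, and because the deposited files give probe names and no probe sequences, no sequence is shown.

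RNA came from the gastrocnemius, a hindlimb muscle, of male mice aged 25 weeks. The FOXO1-Tg sample was a pool of 5 mice that overexpress FOXO1, a forkhead transcription factor induced during muscle atrophy, in skeletal muscle as a transgene, and the wild-type control sample was a pool of 6 mice. The promoter of the transgene is not given in the sources used here. Each pool was labeled with Cy3 and hybridized to 1 Agilent array, both on the same slide. There was thus 1 sample per group: the spread between mice cannot be seen, no test was possible, and every difference below compares these 2 pools. Ratios are FOXO1-Tg over wild-type after each array was divided by the 75th percentile of its signals (844 in the FOXO1-Tg pool and 771 in the wild-type pool), and the error given is that of the scanner.

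Long intergenic noncoding RNAs are transcripts from between the protein-coding genes that are not known to be translated. Many are spliced and polyadenylated like messenger RNAs, but they tend to be less abundant and more restricted to single tissues. Some act in the nucleus on chromatin and others in the cytoplasm on proteins or microRNAs, and in skeletal muscle several take part in myoblast differentiation.

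The labels were checked on known genes. One probe of Foxo1 read 279457 in FOXO1-Tg RNA and 4540 in wild-type RNA, a log2 ratio of 5.81 ± 0.20, whereas a second one had 3188 and 2853, a log2 ratio of 0.03 ± 0.20. All 12 muscle fiber markers were detected in both pools, with 1 past 2-fold, the oxygen-binding Mb, at -1.14. Of 10 adipocyte markers 9 were past 2-fold higher, with a summed signal of 309904 in the FOXO1-Tg pool and 105001 in the wild-type pool. Of 9 keratinocyte markers on the array 5 were higher and 1 lower, with sums of 7900 and 1604, and of 5 Schwann cell markers 3 were higher, with sums of 90618 and 66148. All 10 adipocyte and all 5 Schwann cell markers were detected in both pools. Of the 9 keratinocyte markers, 8 were detected in the FOXO1-Tg pool and 7 in the wild-type pool. The part of these cell types in the ratios below was not tested, and in bulk tissue fewer cells of a type and less RNA per cell cannot be told apart.

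Position-named probes were dim. Their median signal was 62.6 in the FOXO1-Tg pool and 65.7 in the wild-type pool, against 467 and 426 for all other detected probes. The detected share was 56.4% (95% Wilson interval 55.6 to 57.1, counting error only), below the 73.2% of all other probes and close to the 54.5% of RefSeq noncoding transcripts. Of the 9126 probes, 7639 were detected in both pools, 716 (7.85%) in the FOXO1-Tg pool only and 771 (8.45%) in the wild-type pool only. Of the 28884 other detected probes, 26483 were detected in both pools. A further 1297 of these were detected in the FOXO1-Tg pool only and 1104 in the wild-type pool only. The lowest signal called well above background was 14.6 in the FOXO1-Tg pool and 17.5 in the wild-type pool. The 7063 position-named probes detected in neither had medians of 3.67 and 5.06.

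The ratios of the position-named probes lay on the lower side in the FOXO1-Tg pool. The median log2 ratio was -0.23 (quartiles -0.55 and 0.06, median scanner error 0.24), against -0.07 for all other probes and -0.13 for RefSeq noncoding transcripts. Of the 9126 probes, 6216 (68.1%) had a ratio below 0, against 58.4% of the other probes. Past 2-fold, 218 position-named probes (2.39%) were higher and 633 (6.94%) were lower, where the background over all detected probes was 3.36% higher and 4.86% lower. Among the probes detected in both pools, 117 (1.53%) were higher and 306 (4.01%) lower. With the same filter 2.63% were higher and 2.96% lower over all probes, and 2.95% and 2.65% over all other probes. For a probe detected in 1 pool only the ratio is a bound, with the dim array set to its lowest detected signal unless the probe itself read higher there. A bound that would have pointed toward the other pool was set to 0. Of the 716 FOXO1-Tg only probes 101, and of the 771 wild-type only probes 327, had a bound past 2-fold. These bounds were not taken against an equal floor, since the lowest detected signal was 1.73% of the 75th percentile in the FOXO1-Tg pool and 2.27% in the wild-type pool.

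How far the lower side prevailed depended on the signal and on the scaling. In probes with a mean signal under 50 the median log2 ratio was -0.38, with 114 higher and 504 lower of 3925. From 50 to 200 it was -0.20, from 200 to 1000 it was -0.15 and over 1000 it was -0.19, with 8 higher and 6 lower of 783 in that last class. All other probes in the same 4 classes had medians of -0.24, -0.07, -0.03 and -0.07, so the median of the position-named probes was the lower in each. The share of probes past 2-fold lower was not higher than in the other probes of the same class: it was 12.8% against 13.0% under 50, 3.22% against 3.23% from 50 to 200, 1.88% against 2.30% from 200 to 1000 and 0.766% against 1.24% over 1000. The share past 2-fold higher was smaller in each class, at 2.90%, 2.45%, 1.60% and 1.02% against 5.78%, 5.13%, 3.55% and 1.97%. Probes detected in neither pool had a median of -0.44, among position-named and all other probes alike. In the probes over 50 that were detected in both pools, 98 position-named probes were higher and 127 lower (43.6% of them higher), against 711 and 456 (60.9% higher) of all other probes. With both arrays set to the same distribution of signals (quantile normalization), 309 position-named probes were higher and 330 lower, and with cyclic loess, which removes a trend with signal, 341 were higher and 292 lower. The share of higher calls was thus 25.6% under the 75th percentile, 36.2% under median scaling, 39.1% with no scaling, 48.4% under quantile normalization and 53.9% under cyclic loess. The median over all detected probes was -0.11 under the 75th percentile and 0.00 under median scaling, and the median of the position-named probes stayed 0.15 below that of the other probes under median scaling and 0.10 below it under cyclic loess, and 0.052 below it under normexp with quantile normalization.

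**Figure D1:**
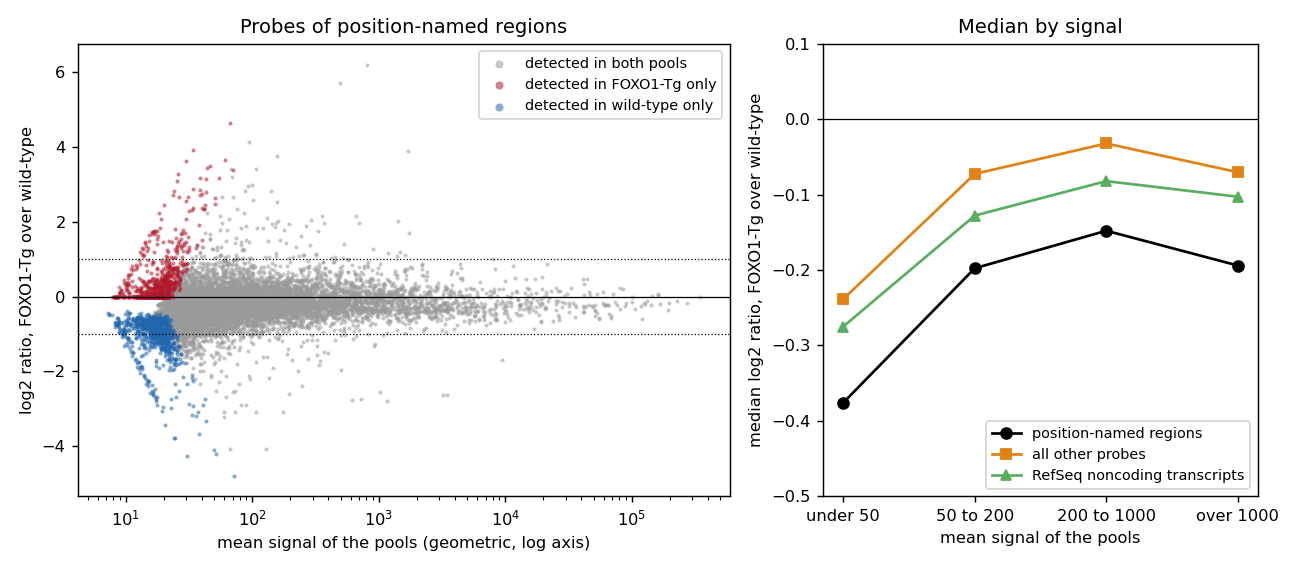
Left, the log2 ratio, FOXO1-Tg over wild-type, on the vertical axis, of each detected position-named probe against the geometric mean of its signal in the pools (log axis), with gray points detected in both pools, red in the FOXO1-Tg pool only and blue in the wild-type pool only, and dotted lines at 2-fold. Right, the median log2 ratio in 4 classes of signal, where position-named regions lie below all other probes in each class (-0.38 against -0.24 under 50, and -0.19 against -0.07 over 1000).

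The regions were spread over 20 chromosomes, 1 to 19 and X. On all 20 the median log2 ratio was below 0, between -0.33 on chromosomes 12 and 13 and -0.12 on chromosome 19, and on all 20 more probes were past 2-fold lower than higher. This second count did not hold under other scalings: it was 9 chromosomes under quantile normalization and 5 under cyclic loess. The medians by chromosome were not computed under other scalings. With no scaling, the median over all position-named probes was -0.10 instead of -0.23. The sign of the median on chromosome 19, the nearest to 0, may therefore depend on the scaling as well. Chromosome 5 had the highest detected share, 64.5% (95% Wilson interval 61.4 to 67.4, 623 of 966 probes), and chromosome 9 the lowest, 49.0% (45.5 to 52.7, 361 of 736). The chromosomes were picked by these values, and the intervals treat probes of 1 region as independent. Chromosome 9 also had the highest share past 2-fold, 13.9%, with 14 probes higher and 36 lower, and the lowest median signals, 41.5 in the FOXO1-Tg pool and 47.0 in the wild-type pool. Chromosome 11 had the lowest share past 2-fold, 5.42%, with 4 higher and 19 lower. Its median signals were 67.1 and 70.1, so the chromosomes compared differ in signal as well, and the part of signal in this difference was not tested.

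**Figure D2:**
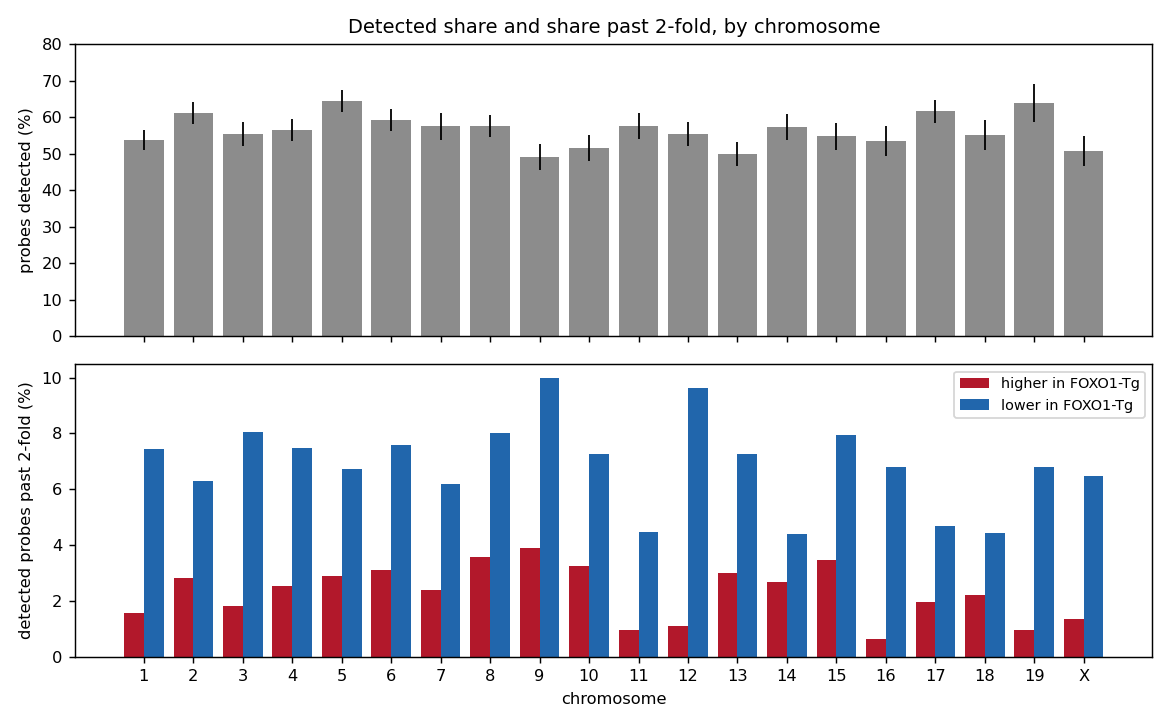
Top, the percent of position-named probes detected on at least 1 array on each chromosome (bars from 0, lines the 95% Wilson interval). Bottom, the percent of detected probes past 2-fold higher (red) and lower (blue) in the FOXO1-Tg pool, where the blue bar is the taller on all 20 chromosomes under the 75th percentile scaling, and on 5 under cyclic loess.

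The strands were close in their ratios, and the detected share was 58.0% on the reverse strand and 54.8% on the forward strand. The forward strand had 4477 detected probes of 8169, a median log2 ratio of -0.25, and 118 higher and 336 lower. The reverse strand had 4641 of 8007, a median of -0.21, and 100 higher and 296 lower. A further 13 probes had a position without strand, and 8 of them were detected. Region length ranged upward of 62 bases with a median of 10676, and the detected share was 51.7% in regions of up to 1 kb, 59.3% from 1 to 10 kb and 56.3% above 10 kb, with medians between -0.24 and -0.21.

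Several probes of a region give repeated readings of that region in the same 2 RNA pools. They show how evenly a region was read and are not replicates of the condition. Of the regions, 1507 had 3 or more detected probes (5958 probes), and 440 of them overlapped another of the 1507 on the same strand, which left 1259 separate loci. The median over probes was below 0 in 1053 of the 1507, and its own median was -0.20. The range of log2 ratios among the probes of a region was 0.60 at the median. It narrowed with signal, from a median of 0.86 in regions under 50 to 0.15 in regions over 1000. The scanner error, 0.24 at the median, is that of the ratio of 1 probe. A range over 3 or more probes tends to exceed it even where only that error acts. Ranges and errors, here and below, are therefore not like measures.

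By the median over its probes, 25 regions (1.66%) were past 2-fold higher and 37 (2.46%) were lower, where the background over all names with 3 or more detected probes was 1.87% higher and 2.27% lower. The 1507 regions make up most of the 2029 names in that background, and among the other 522 names 13 (2.49%) were higher and 9 (1.72%) lower. In 12 of the 25 every detected probe was past 2-fold higher and in 7 of the 37 every one was past 2-fold lower. Regions read in both pools by all their probes numbered 975, with 15 higher and 12 lower. The 25 higher regions all stayed past 2-fold higher under quantile normalization and under cyclic loess, whereas 16 and 11 of the 37 lower regions stayed past 2-fold lower. These 2 scalings raise the median of the position-named probes from -0.23 to -0.13 and -0.08, which favors the higher calls. With only probes detected on both arrays, 15 of the 25 (17 still listed) and 15 of the 37 (16 still listed) stayed past 2-fold. With normexp background correction and quantile normalization together, 11 of the 25 and 4 of the 37 stayed past 2-fold. The single probes past 2-fold often stood alone: 142 of the 218 higher ones lay in regions with 3 or more detected probes, and 72 of those in a region whose median was past 2-fold the same way, against 344 of the 633 lower ones and 91.

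The 12 regions with the highest and the 12 with the lowest medians were labeled H1 to H12 and L1 to L12. H1, chr14:21029450-21049451 on the forward strand, had the highest median, 3.90 (14.9-fold). Its 5 probes gave signals of 7276, 6882, 3783, 2966 and 392 in the FOXO1-Tg pool, against 90.6, 422, 65.8, 672 and 50.4 in the wild-type pool. All 5 were higher in the FOXO1-Tg pool, but by amounts from 2.01 to 6.20 on the log2 scale, a range far wider than the scanner error of 0.20 to 0.24 on each, so that no single fold describes the region. The 2 probes with the highest ratios were not the ones brightest in the wild-type pool.

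H2, chr2:180161459-180189542 on the reverse strand, had a median of 2.99 over 3 probes that were read unevenly. Signals of 412 and 296 in the FOXO1-Tg pool stood against 21.7 and 34.0 in the wild-type pool (4.12 ± 0.34 and 2.99 ± 0.28), while the third probe had 853 and 704 (0.15 ± 0.20). One probe in this region therefore showed a difference smaller than the scanner error. In H3, chr13:29106280-29120376 forward, signals of 141, 153 and 128 in the FOXO1-Tg pool stood against 46.9, 22.1 and 12.7 in the wild-type pool, the last below detection, with a median of 2.66. In H4, chr10:41368681-41393645 reverse, signals of 120, 98.9 and 105 stood against 27.9, 17.7 and 17.2, of which 1 was detected, with a median of at least 2.35.

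In H5, H6 and H7 every detected probe was past 2-fold higher. H5, chr2:136327645-136341251 forward, had 336, 616 and 177 in the FOXO1-Tg pool against 75.2, 138 and 32.2 in the wild-type pool, with ratios from 2.03 to 2.33 and a median of 2.03 (4.09-fold). H6, chr5:92556322-92558910 forward, had 634, 1457 and 393 against 172, 338 and 62.4. Its ratios ran from 1.75 to 2.52, a range of 0.78, with a scanner error of 0.20 to 0.23 on each probe. A longer forward region around H6, chr5:92548501-92566401, was not higher, with a median of -0.51 and ratios from -1.21 to 0.06. H7, chr6:99472981-99484210 reverse, had 535, 295, 403, 781 and 1461 in the FOXO1-Tg pool against 132, 70.0, 95.5, 161 and 300 in the wild-type pool, with ratios from 1.89 to 2.16 and a median of 1.95, and its other probe on the array was detected in neither pool. In H5 and H7 the range among probes, 0.30 and 0.26, was about that of the scanner error (0.21 to 0.28).

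The remaining high regions were H8, chr13:53100475-53113850 forward, with a median of 1.84, H9, chr8:90048940-90049461 forward, 1.79, H10, chr17:8718223-8949898 forward, 1.79, H11, chr10:96098058-96098623 forward, 1.61, and H12, chr9:82991830-82999937 forward, at least 1.53. H9 to H11 each held 1 probe under 2-fold, and 1 probe of H8 was detected in the FOXO1-Tg pool only (19.9 against 4.48), with a bound of 0.05. In H11 the probe under 2-fold was lower in the FOXO1-Tg pool (77.8 against 98.4, -0.47 ± 0.22). H12 was detected in the FOXO1-Tg pool only in all 3 probes, with signals of 50.8, 55.5 and 62.1 against 19.6, 13.4 and 14.0 in the wild-type pool. Regions overlapping H9 and H10 on the same strand were lower than they: chr8:90000619-90061169 had a median of -0.66 and chr17:8719950-8783850 one of 0.58. Of the 12 high regions, 7 had every detected probe past 2-fold, and 9 lay on the forward strand.

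**Figure D3:**
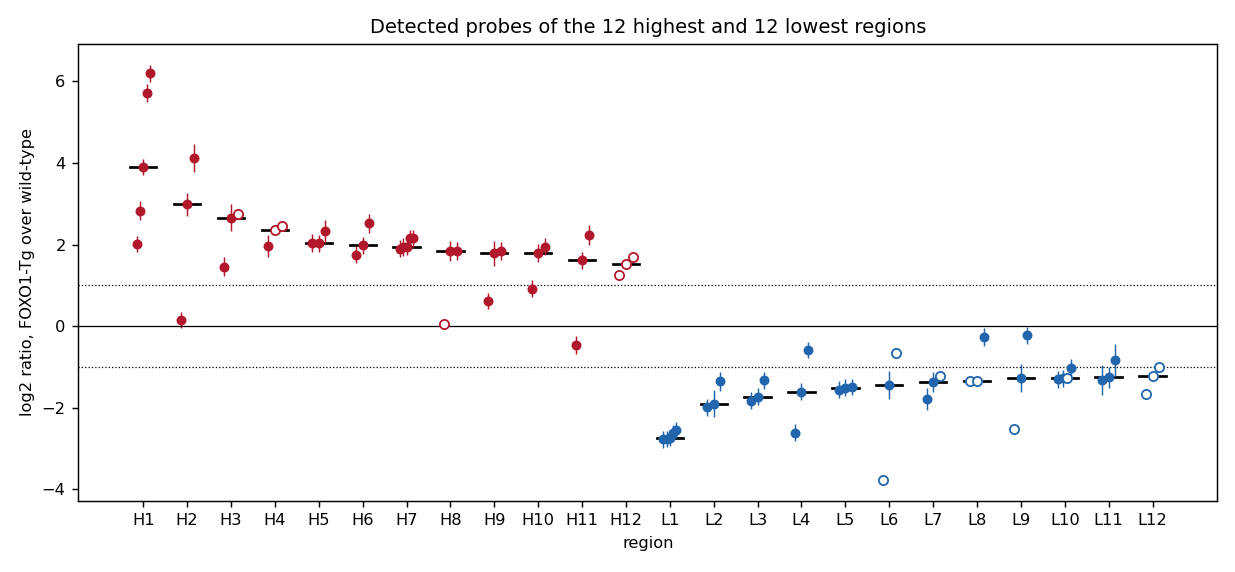
The log2 ratio, FOXO1-Tg over wild-type, on the vertical axis, of each detected probe in the 12 highest (H1 to H12, red) and 12 lowest (L1 to L12, blue) regions, ranked by their medians (black lines). Filled points were detected in both pools and carry the scanner error, open points were detected in 1 pool and are bounds, and dotted lines mark 2-fold. The probes of H1 span 2.01 to 6.20, and those of L1 span -2.78 to -2.55.

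L1, chr3:21964899-21974524 on the reverse strand, had the lowest median and was read evenly. Its 5 probes gave signals of 1351, 465, 443, 291 and 247 in the FOXO1-Tg pool, against 7605, 2911, 2366, 1782 and 1537 in the wild-type pool. The ratios ran from -2.78 to -2.55 with a median of -2.75, or 0.149 times the wild-type level. The range of 0.23 was about the scanner error of 0.20, and the order of the probes by signal was the same in both pools.

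The next low regions were dimmer. L2, chr1:73004154-73007481 forward, had 120, 18.3 and 46.9 in the FOXO1-Tg pool against 439, 62.5 and 109 in the wild-type pool, with a median of -1.90. L3, chr12:32781477-32808567 reverse, had 189, 198 and 214 against 612, 601 and 492, with a median of -1.73. L5, chr16:13514223-13516070 reverse, had 199, 247 and 229 against 538, 645 and 589, with a median of -1.51. All 9 of these probes were lower in the FOXO1-Tg pool and past 2-fold, and those of L5 differed by 0.07 among themselves.

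L4, chr4:119967625-119978325 forward, was read unevenly, with ratios of -2.61, -1.61 and -0.59. The others were L6, chr14:76912477-76931702 forward, with a median of -1.44, L7, chr2:113880070-113887230 forward, -1.37, L8, chr6:86425510-86450160 forward, -1.34, L9, chr15:10363330-10371830 reverse, -1.28, L10, chr6:37630192-37682692 forward, -1.27, L11, chr12:33606225-33638225 forward, -1.25, and L12, chr10:21710544-21710942 forward, -1.21. L10 was the brightest of these, with 614, 628 and 400 in the FOXO1-Tg pool against 1389, 1395 and 743 in the wild-type pool in the 3 probes detected in both. L6 to L10 and L12 rested on at least 1 probe that was not well above background in the FOXO1-Tg pool, so their medians are bounds or lie beside bounds. L6, L8, L9 and L11 each held 1 detected probe under 2-fold. In L8 and L9 this was the brightest probe, with 106 against 117 (-0.28 ± 0.22) and 219 against 234 (-0.23 ± 0.21). The other 2 detected probes of L8 were detected in the wild-type pool only. L12 was detected in the wild-type pool only in all 3 probes, with 3.43, 3.96 and 3.30 in the FOXO1-Tg pool against 42.3, 30.9 and 26.8. Of the 12 low regions, 7 had every detected probe past 2-fold, and 8 lay on the forward strand.

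**Figure D4:**
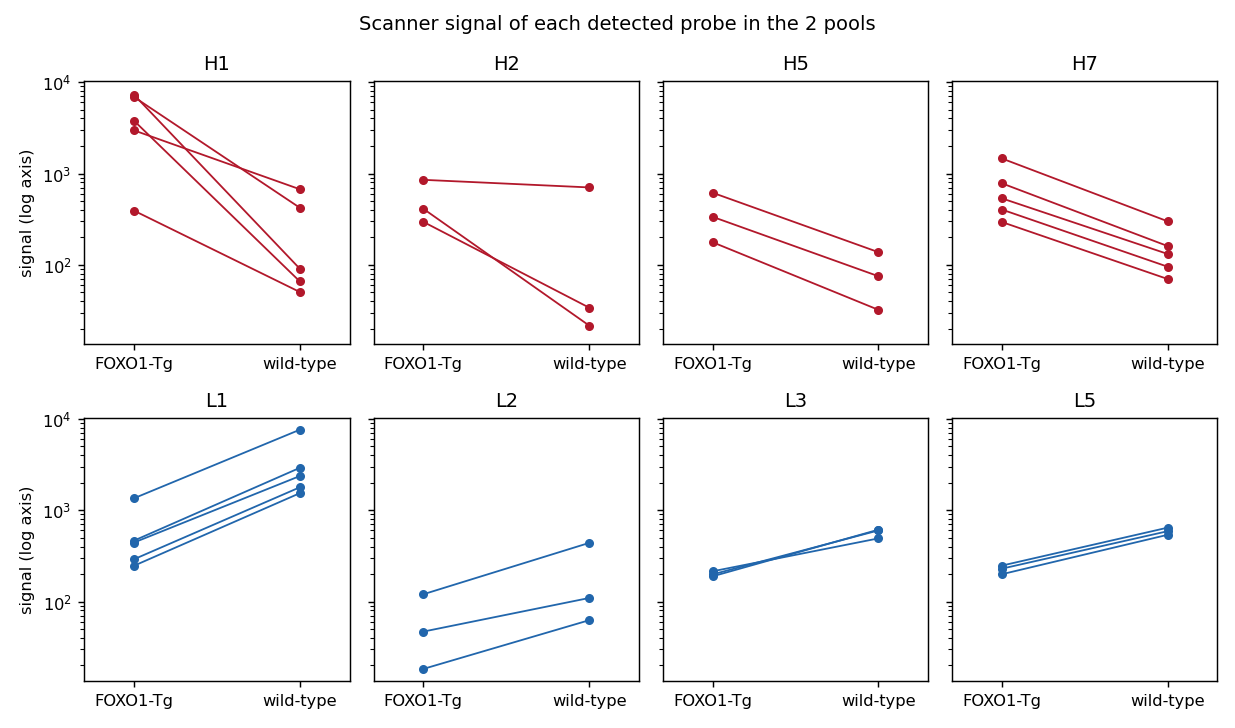
Scanner signal (log axis, not scaled between arrays) of each detected probe in the FOXO1-Tg pool (left) and the wild-type pool (right) of each panel, for 4 high and 4 low regions, with a line joining the same probe. The lines of H5, H7, L1 and L5 run near parallel, whereas in H2 1 line is near level (853 against 704) and the other 2 are steep.

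Regions detected in 1 pool only in every probe were few and dim. Beside H12, these were chr1:73664661-73911040 reverse (T1) and chr3:84610558-84611133 reverse (T2) in the FOXO1-Tg pool, with medians of at least 0.07 and 0.53, and beside L12 chr7:117140887-117152562 forward (W2) in the wild-type pool, at -0.70. In T1, T2 and W2 no probe was past 2-fold by its bound. Their signals ran from 15.6 to 38.5 in the FOXO1-Tg pool for T1 and T2, and from 21.6 to 23.4 in the wild-type pool for W2, near the lowest detected signals given above.

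Of the 5 regions brightest in the wild-type pool, B1, B2 and B5 differed little between the pools. The probes of chr17:17481706-17482457 reverse (B1) had 270512, 226336 and 124382 in the FOXO1-Tg pool against 277328, 225945 and 130924 in the wild-type pool, with a median of -0.17. Those of chr19:5801802-5802597 reverse (B2) had 361269, 171032 and 105356 against 331398, 151579 and 97663, with a median of -0.0049. In both, every probe lay within the scanner error of 0.20. B5, chr3:146629425-146649125 forward, had a median of 0.06 over 4 probes, with 95979 as its brightest in the FOXO1-Tg pool and 76904 in the wild-type pool.

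A bright pair of overlapping regions on chromosome 10 was lower in the FOXO1-Tg pool in nearly every probe. All 5 probes of B4, chr10:69669025-69686275 forward, were lower, from -0.60 to -0.44, with 58832 as the brightest in the FOXO1-Tg pool and 80639 in the wild-type pool, and a median of -0.58 (0.671 times the wild-type level). B3, chr10:69679644-69682458 forward, which lies within B4, had -0.53 and -0.48 in its bright probes (59837 and 58235 against 78932 and 74031) and 0.01 in a dim one (455 against 413). The dim probe of B3 did not share the lower ratio of the other 7 probes of this stretch.

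Of positions probed on both strands with the same start and end, 1066 were measured, and 835 had a detected probe on both strands, 96 on the forward strand only, 94 on the reverse strand only and 41 on neither. In 274 of them each strand had 3 or more detected probes. Across these 274 the medians of the strands had a Pearson correlation of 0.23, given as a description since the points share both arrays and their scaling. The gap between strands was 0.24 at the median, under 0.5 in 211 and over 1 in 9. In 257 positions neither strand was past 2-fold, in 15 only 1 strand was, in 2 both were, and in 0 were they past 2-fold in opposite directions.

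The widest gap between strands was at H1. Against its forward median of 3.90, the reverse strand had signals of 49.3, 46.7 and 20.4 in the FOXO1-Tg pool and 75.9, 63.3 and 23.2 in the wild-type pool, with a median of -0.57 (S1). The 3 detected reverse probes had ratios of -0.75 ± 0.24, -0.57 ± 0.25 and -0.32 ± 0.43, whereas the 5 forward ones were higher. These reverse probes were dim, and position-named probes had medians of -0.38 under a signal of 50 and -0.20 from 50 to 200. Whether the reverse strand differed beyond this general lower side was not tested. At L1 the forward strand had 1 probe detected in both pools, 130 in the FOXO1-Tg pool and 188 in the wild-type pool, and a median of -0.66 (S2), against -2.75 on the reverse strand. The other wide gaps were chr3:95443575-95462543 (S3), 0.39 forward and -1.18 reverse, chr11:16831925-16851121 (S4), -0.89 forward and 0.64 reverse, and chr18:61781410-61788685 (S5), -0.34 forward and 1.08 reverse. All 5 reverse probes of S5 had ratios above 0 (0.52 to 1.15), while S3 and S4 held probes near the detection limit.

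At H7 and L8 the medians of both strands were past 2-fold in the same direction, though not all of their probes were. The forward strand of H7 had 80.9, 65.4, 79.8, 77.0 and 141 in the FOXO1-Tg pool against 109, 36.7, 30.1, 18.5 and 30.7 in the wild-type pool, with a median of 1.28, and 1 of its 5 probes was lower. The reverse strand of L8 had 229, 445 and 3087 against 468, 890 and 2526, with ratios of -1.16, -1.13 and 0.16, so its brightest probe did not share the direction of the other 2.

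**Figure D5:**
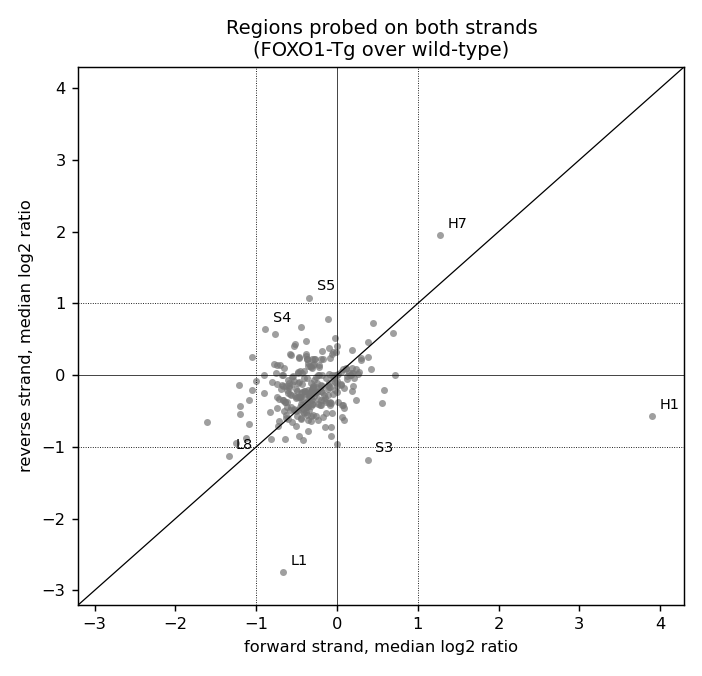
The median log2 ratio, FOXO1-Tg over wild-type, of the forward strand (horizontal axis) and of the reverse strand (vertical axis), of the 274 positions with 3 or more detected probes on each, with the diagonal of equal ratios and dotted lines at 2-fold. Most points lie near the origin, H7 lies high on both strands (1.28 and 1.95), and H1 (3.90 and -0.57) and L1 (-0.66 and -2.75) lie far from the diagonal.

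Of the 1507 regions 1.66% were past 2-fold higher and 2.46% lower, so long runs of such regions would be rare in any case. Whether neighboring regions changed together was not tested. The longest runs of regions past 2-fold in 1 direction on 1 strand held 2 regions. One was chr6:93029101-93031007 forward, at 1.24 over 3 probes, followed among the regions read by the forward strand of H7. That strand's region starts at position 99472981, so the 2 are neighbors only in the list of regions read. The other was a pair of nearly identical regions, chr15:32167516-32174417 and chr15:32167516-32174427 reverse, at 1.09 and 1.11. Their 9 detected probes were read separately and all were higher, from 1.03 to 1.26, with signals of 497 to 2458 in the FOXO1-Tg pool against 206 to 1042 in the wild-type pool. Over all 192 loci of overlapping regions on 1 strand the gap between medians was 0.26 at the median, and under 0.5 in 142. Of these loci 7 held a region past 2-fold, in each case higher, and the chr15 pair was the only one with every region past 2-fold. In the other 6 the gap ran from 0.83 to 2.49, with the widest at H6 (2.49) and H9 (2.45).

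In some regions 1 probe stood apart from the rest. The widest range was in chr4:145000941-145148666 forward (R1), where 1 probe had 241 in the FOXO1-Tg pool and 15.6, not well above background, in the wild-type pool (at least 3.65), and the other 3 were lower, from -1.41 to -1.01. Its median of -1.02 became 0.053 as a mean. In chr12:110944403-110988678 forward (R2), 1 of 8 detected probes had 599 against 40.6 (3.75 ± 0.25) and the other 7 lay between -1.29 and 0.69. The reverse strand of S4 (R3) had 1 probe at 16.9 against 260 (-4.07 ± 0.35) a second at a bound of -1.94, and 3 from 0.64 to 0.91. In chr7:3309825-3331151 reverse (R4) the 4 detected probes lay between -2.23 and 2.37, and both of these ends are bounds of probes detected in 1 pool only. R1 to R4 were picked by their ranges, so each had to hold a probe past 2-fold.

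Some single probes lay farther from 0 than any region median, and 2 of them were chosen after their values were seen. One at chr17:33995525-34028025 reverse had 476 in the FOXO1-Tg pool and 9.36 in the wild-type pool, a log2 ratio of at least 4.63. One at chr13:98281158-98285757 forward had 13.9 in the FOXO1-Tg pool and 366 in the wild-type pool, a log2 ratio of -4.78 as a bound. Each was the one detected probe of its region, so neither was read a second time.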

How the data were processed

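RNA of 2 pools was measured on 1-color Agilent arrays. The authors deposited processed intensity values from Agilent Feature Extraction (its headers name version 11.0.1.1, the submitters' processing notes 9.5), background-subtracted and not scaled between arrays. Their value table held the same signals (largest difference 0 over 62976 spots). From these, log2 values minus the 75th percentile of each array's 59305 non-control spots were computed. Spots flagged as outliers on either array were left out (237, of which 5 measured a position), and none of the position-named spots was saturated. Detection was the scanner's well-above-background flag. Errors combined the scanner's signal errors in quadrature. With 1 array per group no test was run, and calls are ratios past 2-fold. Dim signals limit precision, with a scanner error of 0.24 (log2) at the median.

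The named regions were, among those with 3 or more detected probes, the 12 highest and 12 lowest medians, the 5 brightest in wild-type, up to 5 detected in 1 pool only, the 5 widest strand gaps, the 5 widest ranges and the longest runs. Regions, marker lists and rules were chosen with earlier results of these data known. Alternatives were other scalings, normexp (R 4.3.3, limma 3.58.1), filters, bounds, thresholds and minimums of probes. Scripts ran in Python 3.11.15 and were tested on simulated arrays.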

Additional observations from a re-analysis of the deposited data

How the results depend on the processing

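No paired analysis was possible because the design holds a single pool per genotype, and no array could be left out. The deposited value table and the keeping of outlier spots left every count within 1.5 times. Higher and lower position-named probes numbered 258 and 455 under median scaling, 309 and 330 under quantile normalization, 276 and 430 with no scaling, 341 and 292 under cyclic loess, 78 and 65 under normexp with quantile normalization, 117 and 306 in probes detected on both arrays, 504 and 2424 with no filter, 353 and 902 with measured ratios in place of bounds, 542 and 2084 at 1.5-fold, and 98 and 157 at 3-fold. In probes over a mean signal of 50, a setting chosen after seeing the data, they numbered 104 and 129. The percent higher of those called was 36.2, 48.4, 39.1, 53.9 and 54.5 under the 5 scalings in that order, 17.2 with no filter, 20.6 at 1.5-fold, 38.4 at 3-fold and 44.6 over a signal of 50. The percent detected was 47.2 where both arrays were required.

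Regions higher and lower numbered 28 and 19 under median scaling, 32 and 16 under quantile normalization, 28 and 17 with no scaling, 34 and 11 under cyclic loess, 11 and 4 under normexp with quantile normalization, 15 and 15 for detection on both arrays, 34 and 211 with no filter, 60 and 213 at 1.5-fold, 11 and 4 at 3-fold, 45 and 95 with 2 or more probes, 5 and 4 with 5 or more, 12 and 7 where every probe was past 2-fold, and 14 and 11 over a signal of 50. Chromosomes with more lower than higher probes numbered 9 under quantile normalization, 5 under cyclic loess, 7 under normexp with quantile normalization and 11 over a signal of 50. Strand pairs with 1 strand past the threshold were 2.92% under quantile normalization and cyclic loess, 1.09% under normexp with quantile normalization, 11.2% with no filter, 23.7% at 1.5-fold, 1.46% at 3-fold and 1.43% over a signal of 50. Of 568 values of the 47 named regions, 506 stayed within the scanner error of the reported value. Some settings could hardly move a value. The deposited value table held the same signals, and median scaling and no scaling shift the ratios by 1 common amount. Under normexp with quantile normalization 29 values moved by more than the scanner error, and under the region mean 12 did. Only R1 turned sign among the called ones, to 0.053 as a mean. Of the 25 higher and 37 lower regions, 11 and 4 stayed past 2-fold under normexp with quantile normalization, which changes background correction and normalization at once. The cause of these shifts was not tested.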
